A study of Mus musculus with 4 samples.

Results

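The complement and coagulation genes made by hepatocytes were followed in liver RNA of mice with and without DDI2, an aspartic protease. A list of 38 symbols of complement, lectin pathway, coagulation, fibrinogen and kinin genes was matched by Ensembl identifier to the 48709 genes of the count files, and all 38 were found. All 38 were among the 13699 genes that passed the filter on low counts. They were grouped by role into the classical pathway (5 genes), the lectin pathway (4), C3 and the alternative pathway (4), the terminal pathway (6), contact and kinin genes (5), coagulation factors (6), the protein C system (2), fibrinogen (3), and fibrinolysis with vitronectin (3). Messenger RNA was sequenced from the livers of 4 adult C57BL/6 mice without treatment, 2 labelled WT and 2 labelled DDI2-/-. According to the study's methods, the WT mice were littermates with floxed Ddi2 alleles but no Cre recombinase, and the DDI2-KO mice carried the same floxed alleles with Cre under the albumin promoter, so that the deletion was directed to cells that express albumin, chiefly hepatocytes. Both sexes were used in the study. The labels give neither age nor sex. Over the 4 libraries, 4 Y-linked genes had 0 reads in total, so no library showed the Y-linked reads of a male. The female-specific Xist was counted 17484 and 11533 times in WT, against 1230 and 3288 times in the DDI2-KO libraries.

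Complement is a cascade of plasma proteins that marks and lyses microbes. The classical, lectin and alternative routes converge on the cleavage of C3, after which C5 to C9 assemble into a membrane pore. Coagulation is a related cascade of serine proteases and cofactors that ends in the conversion of fibrinogen to fibrin by thrombin, and hepatocytes secrete most of the circulating proteins of both.

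Each library held between 22501208 and 34109018 reads on genes, and a floor of detection of 3 counts corresponded to 0.0880 to 0.133 CPM, counts scaled to the library size. For Ddi2, the targeted gene, WT libraries held 4749 and 3812 reads and those labelled DDI2-KO 4068 and 3777, and the log2 fold change was 0.28 (SE, the standard error, 0.17, edgeR adjusted p = 0.349). Its whole-gene count was thus no lower in those labelled DDI2-KO. A count over the whole gene cannot show the loss of the exon that Cre removes, so DDI2-KO stands below for what the label says. The study states that its mice were genotyped by PCR, and it probed DDI2 protein by immunoblot in livers of both genotypes. The tissue label was checked against 10 hepatocyte markers, all of which were detected, with a summed level of 161400 and 185500 CPM in WT and 150400 and 153400 CPM in DDI2-KO livers. Most of each sum was Alb alone, at 134404 and 154589 CPM in WT and 122390 and 128489 CPM in DDI2-KO. Of the 10 markers, 8 had a log2 fold change below 0 and none passed the test. Among the markers of other cell types, Stab2 of sinusoidal endothelium (log2 fold change -1.10, edgeR adjusted p = 0.0288) and the haemoglobin gene Hba-a1 (-1.94, edgeR adjusted p = 0.0338) fell. Of the 8 sinusoidal endothelial markers, 5 had a log2 fold change above 0 and 3, Stab2 among them, below. The summed platelet and erythroid markers ranged from 88.7 to 166 CPM in WT and from 59.2 to 70.8 CPM in DDI2-KO livers. Of the platelet genes of that list, Itga2b and Gp9 overlapped between the groups, and Gp9, at 2 and 4 reads against 2 and 1, was not tested. Ppbp and Pf4 lay above WT without overlap, with log2 fold changes of 1.30 for Ppbp and 0.78 for Pf4 (edgeR adjusted p = 0.110 and 0.294). Their counts were low, 21 and 15 reads against 31 and 36 for Ppbp and 20 and 24 against 25 and 32 for Pf4. All 8 stellate cell markers had a log2 fold change below 0, none of them past the test, with sums of 655 and 701 CPM against 591 and 576 CPM. The 8 Kupffer cell and macrophage markers summed to 624 to 730 CPM in WT and 743 to 869 CPM in DDI2-KO livers, and none passed the test. Sums of the sinusoidal endothelial markers were 552 to 636 against 593 to 611 CPM, those of cholangiocytes 53.2 to 56.7 against 69.2 to 70.8 CPM, and those of neutrophils 7.12 to 7.47 against 6.18 to 7.11 CPM, with the neutrophil marker Ly6g at 0 in all libraries. Libraries labelled DDI2-KO differed from each other with GC content (Spearman's rho of -0.48 across 13675 genes between replicate 2 and replicate 1, against 0.07 in WT), and reads outside annotated genes corresponded to 2.53% and 3.65% of the reads on genes in DDI2-KO and 5.11% and 4.70% in WT. The part of these library properties and of these cell types in the results below was not tested, and in bulk RNA fewer cells of a type and less RNA per cell cannot be told apart.

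The 38 genes together made up 4.95% and 4.87% of WT reads on genes and 5.35% and 5.30% of those in DDI2-KO livers. Levels between genes were compared per length, as TPM (length-scaled transcript abundance), computed from the counts and the annotated exon length. By this measure the genes spanned from 6744 TPM for Fgg, the fibrinogen gamma chain, down to 2.25 TPM for Cfb, complement factor B, as the mean of the 4 libraries. The median was 288 TPM, and 31 of the 38 genes were over 100 TPM. The 3 fibrinogen chains ranked 23, 25 and 29 among all genes, and C3 ranked 31. Within a gene the libraries differed far less than the genes differed from each other.

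**Figure D1:**
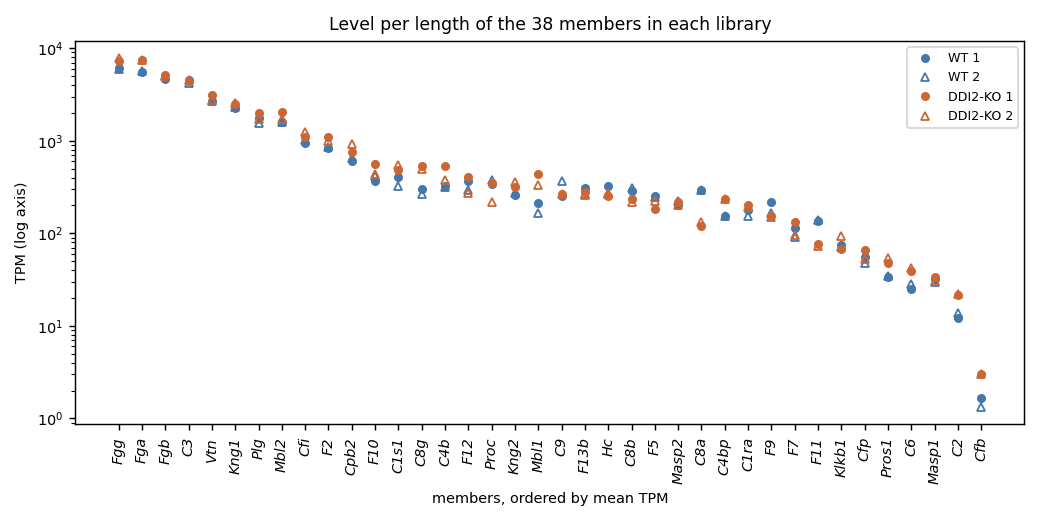
Level per length (TPM, log axis) of each of the 38 genes in each of the 4 libraries, ordered by the mean, with WT in blue and DDI2-KO in orange. The genes span from 2.25 to 6744 TPM, and for C8a and F11 both DDI2-KO points lie below both WT points.

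The question of the comparison was whether the loss of DDI2 in hepatocytes changed the levels of these transcripts. Between WT and the DDI2-KO livers, 2 of the 38 genes fell in the latter and none rose. The genes that fell were C8a, the alpha chain of the eighth complement component, with a level 2.53-fold lower, and F11, coagulation factor XI, with a level 2.01-fold lower. Over all genes tested, 2.53% passed the same test, 1.33% as higher and 1.2% as lower, so 2 of 38 genes is a small count to read against the background. At an unadjusted p under 0.05 there were 11 of 38 genes, 7 higher and 4 lower, where 23.5% of all genes reached this level. DESeq2 called 2 further genes, Mbl1 and C8g, as higher, and edgeR called 3 as higher without the filter on low counts, 3 with a replicate block and 1 without DDI2-KO replicate 2.

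The other genes of the list did not pass the test. The fitted log2 fold change was above 0 for 24 genes and below 0 for 14, with a median of 0.07 beside -0.01 for all genes tested and 0.11 for the 5198 tested genes with a mean of at least 10 TPM. In 14 genes both DDI2-KO libraries lay above both WT libraries, in 10 they lay below, and in 14 the groups overlapped. Over all genes the shares without overlap were 28% above and 27.7% below. The median size of the log2 fold change was 0.25 between genotypes, compared with 0.12 between the WT libraries and 0.13 between the DDI2-KO libraries. The same medians for all genes were 0.30, 0.19 and 0.27. The 19 complement genes held 8 of the 11 genes with an unadjusted p under 0.05. The 19 coagulation, kinin and fibrinolysis genes held 3, where 23.5% of all genes tested reached this level. The difference between the arms was not tested.

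**Figure D2:**
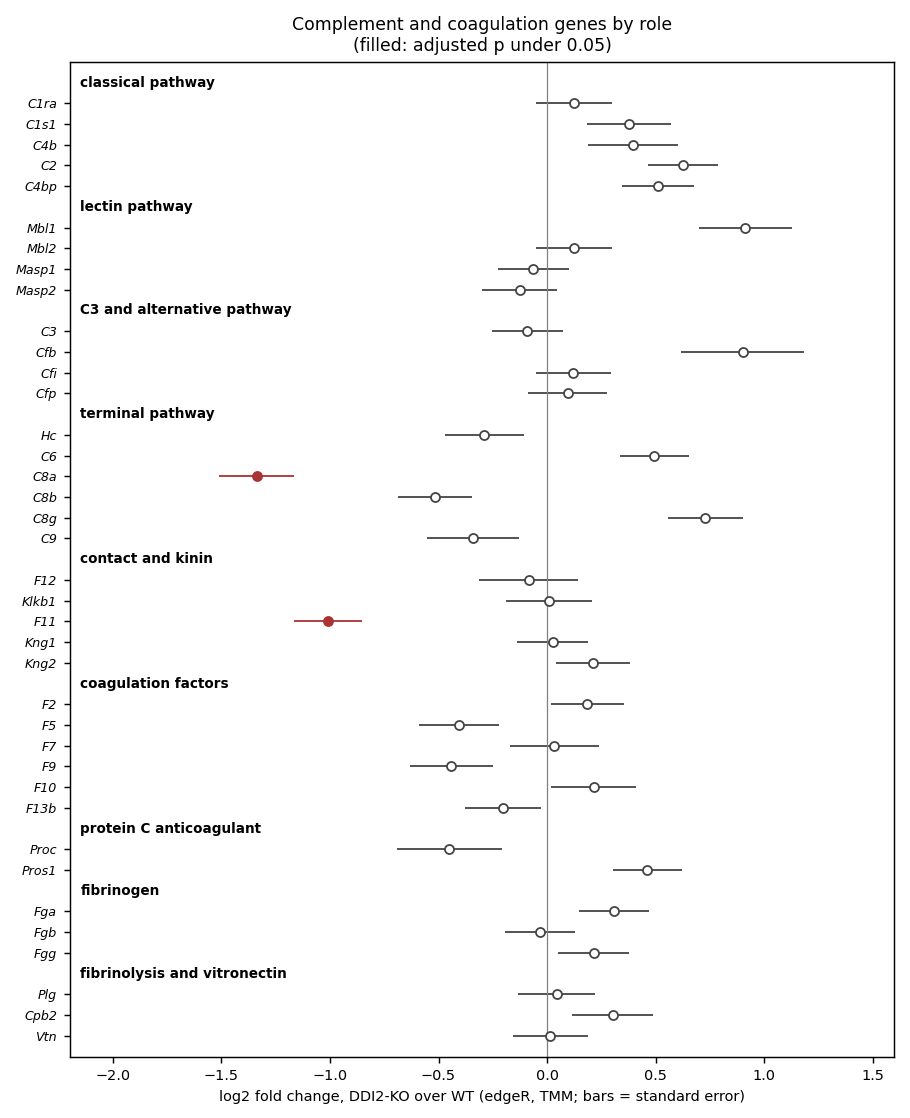
Log2 fold change of DDI2-KO over WT for each of the 38 genes, grouped by role, with the standard error from edgeR as a bar and filled points for an adjusted p under 0.05. C8a at -1.34 and F11 at -1.01 are the filled points, and the terminal pathway spans from -1.34 to 0.73.

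**Figure D3:**
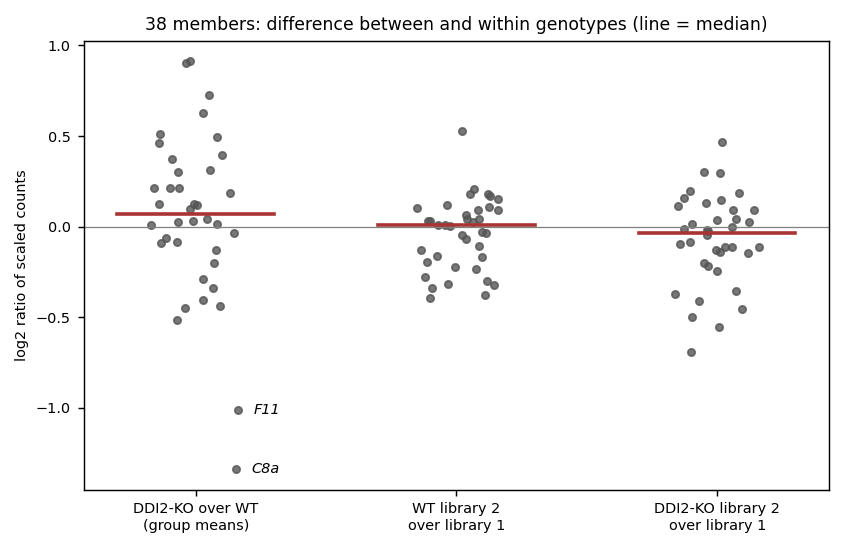
Log2 ratio of scaled counts for the 38 genes between the genotypes (left), between the WT libraries (middle) and between the DDI2-KO libraries (right), with a line at each median. C8a and F11 lie lower than any ratio between libraries of the same genotype.

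In the classical pathway, which antibody or C1q sets off, all 5 genes had a log2 fold change above 0, with a median of 0.40, and none passed the test. C1s1, a C1s protease that cleaves C4 and C2 and the most abundant of the group, stood at 549 and 433 CPM in WT and 593 and 681 CPM in DDI2-KO livers. The DDI2-KO values were the higher ones without overlap, but the log2 fold change of 0.38 had a standard error of 0.19 (edgeR adjusted p = 0.279). C2, the serine protease part of the classical C3 convertase, was at 20.1 and 22.8 CPM against 32.8 and 33.4 CPM. The groups were apart by more than the spread within either, and the log2 fold change was 0.63 (SE 0.16, edgeR adjusted p = 0.0745). C4bp, a plasma inhibitor of that convertase, was at 439 and 447 CPM in WT and 634 and 628 CPM in DDI2-KO. Here too the groups did not overlap, with a log2 fold change of 0.51 (SE 0.17, edgeR adjusted p = 0.123). C4b, which supplies the other part of the convertase, and C1ra, a C1r protease, had log2 fold changes of 0.40 and 0.12, and for C1ra the libraries overlapped. Stretches of 50 bases shared with another annotated gene made up 58.0% of C2, 50.8% of C1ra, 35.2% of C4b and 24.3% of C1s1, so that part of their reads could not be assigned to them alone.

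The lectin pathway recognises sugars on microbes. Mbl1, a mannose-binding lectin, had the largest positive log2 fold change of the list. It was measured at 144 and 111 CPM in WT and at 274 and 207 CPM in DDI2-KO livers. Both DDI2-KO libraries were above both WT libraries, although the libraries within each genotype also differed, and the log2 fold change of 0.91 (SE 0.21, edgeR adjusted p = 0.0644) missed the threshold, which it passed in 4 of 16 alternatives. Mbl2, its paralogue and the most abundant gene of the pathway, was at 747 and 749 CPM in WT and 884 and 746 CPM in DDI2-KO. Its groups overlapped, with a log2 fold change of 0.12 (SE 0.18, edgeR adjusted p = 0.718). Per length, Mbl2 exceeded Mbl1 7.46 and 9.72 times in WT, against 4.65 and 5.20 times in DDI2-KO. The proteases that the lectins carry, Masp1 and Masp2, had log2 fold changes of -0.06 and -0.13, and their libraries overlapped.

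C3, the hub of the cascade and the most abundant complement gene, was at 10088 and 9213 CPM in WT and 8937 and 9187 CPM in DDI2-KO livers. The DDI2-KO libraries were barely below the lower WT library, and the log2 fold change was -0.09 (SE 0.16, edgeR adjusted p = 0.778), with a 95% confidence interval from -0.46 to 0.28. Cfb, the protease of the alternative convertase, had the fewest reads of the list, 67 and 50 in WT and 87 and 78 in DDI2-KO, or 1.99 and 1.62 CPM against 3.36 and 3.39 CPM. The groups did not overlap, and the log2 fold change was 0.90 (SE 0.28, edgeR adjusted p = 0.114). Its exons share 81.4% of their 50-base stretches with an annotated read-through gene, Gm20547, that joins it to C2 and to which 0 reads were assigned in any library, so its low level is that of the reads that could be assigned to Cfb alone. Cfi, which inactivates C3b and C4b, and Cfp, properdin, which stabilises the alternative convertase and is chiefly a product of leukocytes, had log2 fold changes of 0.12 and 0.10 with overlapping libraries.

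The terminal pathway forms the membrane attack complex, and its genes had the widest range of values among the role groups. None of the 6 had overlapping groups, 4 lay below WT and 2 above, and 4 had an unadjusted p under 0.05. Over all genes tested, 28% lay above and 27.7% below without overlap, and 23.5% had an unadjusted p under 0.05. The component C8 is built from 3 chains encoded by separate genes, with the alpha chain bound to gamma by a disulfide bridge and to beta without a covalent bond, and it is required for C9 to join the pore. The promoter windows of the C8 genes are shown because the values of the 3 chains differed, for C8g the window at the annotated start of the gene and not the second window that RefSeq gives it. They are the RefSeq windows on GRCm38.p6 from 250 bases before to 50 bases after the start of transcription, with matches to the STAT motif TTCNNNGAA and the C/EBP motif TTNNGCAA, on either strand, in capitals. C8a holds a STAT match 228 bases upstream of the start, and the windows shown for C8b and C8g hold neither motif.
C8a, chr4:104876349-104876648, minus strand: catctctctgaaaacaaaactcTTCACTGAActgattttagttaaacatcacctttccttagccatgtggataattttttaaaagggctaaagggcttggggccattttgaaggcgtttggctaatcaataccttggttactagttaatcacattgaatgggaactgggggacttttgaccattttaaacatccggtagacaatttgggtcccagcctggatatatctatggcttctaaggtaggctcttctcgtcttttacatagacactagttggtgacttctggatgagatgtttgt
C8b, chr4:104766067-104766366, plus strand: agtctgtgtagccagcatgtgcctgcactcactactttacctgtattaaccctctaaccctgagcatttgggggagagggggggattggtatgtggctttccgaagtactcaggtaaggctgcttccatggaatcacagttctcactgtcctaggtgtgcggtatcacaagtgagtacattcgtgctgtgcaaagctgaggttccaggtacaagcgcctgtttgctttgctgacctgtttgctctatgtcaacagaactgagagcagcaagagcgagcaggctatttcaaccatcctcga
C8g, chr2:25501670-25501969, minus strand: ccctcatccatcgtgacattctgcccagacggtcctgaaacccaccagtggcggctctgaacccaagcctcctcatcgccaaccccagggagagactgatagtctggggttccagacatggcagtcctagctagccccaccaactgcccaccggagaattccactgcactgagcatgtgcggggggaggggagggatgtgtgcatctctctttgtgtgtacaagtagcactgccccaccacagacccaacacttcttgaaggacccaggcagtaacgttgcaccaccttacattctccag

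C8a, on the minus strand of GRCm38 chr4:104815679-104876398, was counted 15259 and 14123 times in WT, against 4451 and 4326 times in DDI2-KO livers. Scaled to library size, this was 454 and 457 CPM in WT and 172 and 188 CPM in DDI2-KO. The WT libraries were nearly equal, and both DDI2-KO libraries were far below them. From 455 ± 2.30 CPM (SD, n = 2) to 180 ± 11.5 CPM (SD, n = 2), C8a fell by 1.34 on the log2 scale (SE 0.17, edgeR adjusted p = 0.0186), with a 95% confidence interval from -1.73 to -0.94. It passed the threshold in all 16 alternative analyses, where the log2 fold change ranged from -1.42 to -1.27.

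C8b, which encodes the beta chain on the plus strand of chr4:104766317-104804548, ends 11130 bases from the end of C8a. It had 311 and 335 CPM in WT and 234 and 217 CPM in DDI2-KO. The direction was that of C8a without overlap, but the log2 fold change was -0.52 (SE 0.17, edgeR adjusted p = 0.124), with a confidence interval from -0.91 to -0.12. With offsets for GC content and length the value was -0.67 (edgeR adjusted p = 0.0462).

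C8g, the gamma chain, a lipocalin encoded on chr2:25498651-25501719, lay on the other side. Its level was 193 and 172 CPM in WT and 315 and 291 CPM in DDI2-KO livers. Both DDI2-KO libraries were higher, with a log2 fold change of 0.73 (SE 0.17, edgeR adjusted p = 0.0656) and a confidence interval from 0.33 to 1.13. The value passed the threshold with DESeq2 (adjusted p = 0.00476), without the filter on low counts (edgeR adjusted p = 0.0103) and with a replicate block (edgeR adjusted p = 0.0307). The gene overlaps Fbxw5 on the opposite strand, whose log2 fold change was 0.14.

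Per length, the 3 C8 transcripts stood close to each other in WT and apart in DDI2-KO. C8a over C8g was 0.965 and 1.09 in WT, against 0.224 and 0.266 in DDI2-KO. The ratio of C8b to C8g was 0.944 and 1.14 in WT and 0.437 in each DDI2-KO library, and C8a over C8b was 1.02 and 0.956 against 0.513 and 0.608. None of these ratios overlapped between the groups. For the ratios to C8g this was fixed by the single values, since C8a and C8b lay below WT and C8g above. Those ratios thus add no support beyond the single genes. The ratios are read within a library, so that its scaling cancels, but with 2 libraries a group an exact permutation test cannot reach the threshold and none was run.

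The other terminal genes differed less than C8a and C8g. C6, which binds C5b to start the pore, was at 37.98 and 43.9 CPM in WT and 55.8 and 59.5 CPM in DDI2-KO. It was the other terminal gene above WT, with a log2 fold change of 0.49 (SE 0.16, edgeR adjusted p = 0.118). Hc, which encodes C5, and C9, the pore-forming chain, had log2 fold changes of -0.29 and -0.34 and adjusted p-values of 0.374 and 0.366 (edgeR). For C9 the WT libraries differed between themselves by 0.53 on the log2 scale, more than the difference between genotypes.

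**Figure D4:**
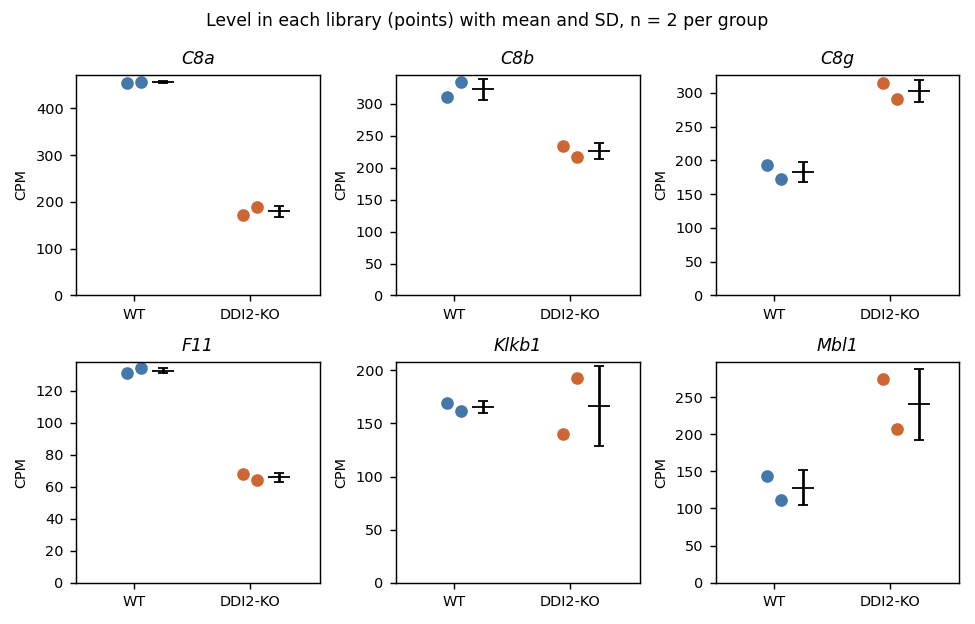
CPM of C8a, C8b, C8g, F11, Klkb1 and Mbl1 in each library (points; WT blue, DDI2-KO orange), with the mean and SD of the 2 libraries beside them and axes from 0. The groups are apart for all but Klkb1, whose DDI2-KO libraries at 140 and 193 CPM enclose the WT libraries.

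Of the 5 contact and kinin genes, F11 fell and the others did not pass the test. Factor XI is the protease that activates factor IX, and Klkb1 encodes its close relative plasma prekallikrein, which frees bradykinin from kininogen. Their genes are neighbours on the minus strand of chromosome 8, 4657 bases apart, and their promoter windows (RefSeq, GRCm38.p6) are shown because the values of the neighbours differed. Capitals again mark matches to the STAT and C/EBP motifs, here a C/EBP match 17 bases upstream of the start in F11 and 177 bases upstream in Klkb1.
F11, chr8:45261982-45262281, minus strand: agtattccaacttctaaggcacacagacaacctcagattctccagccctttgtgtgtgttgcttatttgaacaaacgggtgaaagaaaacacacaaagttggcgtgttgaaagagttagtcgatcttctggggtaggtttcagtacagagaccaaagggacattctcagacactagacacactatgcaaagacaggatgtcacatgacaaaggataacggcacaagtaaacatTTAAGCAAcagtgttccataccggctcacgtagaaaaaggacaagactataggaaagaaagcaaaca
Klkb1, chr8:45294786-45295085, minus strand: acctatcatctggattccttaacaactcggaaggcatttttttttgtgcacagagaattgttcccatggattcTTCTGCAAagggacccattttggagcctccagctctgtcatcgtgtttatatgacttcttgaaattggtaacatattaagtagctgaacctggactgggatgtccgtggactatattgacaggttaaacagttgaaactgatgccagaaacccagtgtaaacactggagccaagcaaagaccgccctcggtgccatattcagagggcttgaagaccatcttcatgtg

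F11, at chr8:45241174-45262031, was counted 4418 and 4141 times in WT, against 1757 and 1470 times in DDI2-KO livers, which corresponds to 131 and 134 CPM against 67.9 and 64.0 CPM. Within each genotype the libraries were close, and the groups were far apart. From 133 ± 1.86 CPM to 65.9 ± 2.77 CPM (SD, n = 2 each), F11 fell by 1.01 on the log2 scale (SE 0.16, edgeR adjusted p = 0.0298), with a 95% confidence interval from -1.37 to -0.65. Without WT replicate 1 the adjusted p was 0.0823 and without WT replicate 2 it was 0.0685 (edgeR), at log2 fold changes of -1.02 and -0.995. Klkb1, in contrast, was at 169 and 162 CPM in WT and 140 and 193 CPM in DDI2-KO. Its groups overlapped, with a log2 fold change of 0.01 (edgeR adjusted p = 0.980). Per length, F11 over Klkb1 was 1.82 and 1.94 in WT and 1.14 and 0.776 in DDI2-KO, without overlap. Of the 50-base stretches of Klkb1, 42.7% are shared with a read-through gene, Gm45753, that held 2 reads in all.

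Kng1, a kininogen gene and the most abundant of the group, was at 3158 and 3222 CPM in WT and 3207 and 3289 CPM in DDI2-KO. The libraries overlapped, and the log2 fold change was 0.03 (SE 0.16, edgeR adjusted p = 0.942), with a confidence interval from -0.35 to 0.40. Kng2, the second kininogen gene, and F12, which starts the contact system, had log2 fold changes of 0.21 and -0.09. For F12 the DDI2-KO libraries differed between themselves by 0.55 on the log2 scale.

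None of the 6 coagulation factors passed the test. F2, prothrombin, was the most abundant, at 1650 and 1699 CPM in WT and 1989 and 1821 CPM in DDI2-KO livers. The DDI2-KO libraries were slightly above, with a log2 fold change of 0.19 (SE 0.17, edgeR adjusted p = 0.550). F9, the factor IX that factor XIa activates, was at 254 and 193 CPM against 166 and 163 CPM. The groups did not overlap, but the WT libraries were far from each other, and the log2 fold change was -0.44 (SE 0.19, edgeR adjusted p = 0.210). F5, the cofactor of factor Xa, had a log2 fold change of -0.41 (edgeR adjusted p = 0.224), and F13b, the carrier chain of the fibrin cross-linking enzyme, one of -0.20. F10, the protease that cleaves prothrombin, and F7, which starts the extrinsic route, had values of 0.21 and 0.03 with overlapping libraries.

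In the protein C system, which degrades the activated factors V and VIII, the enzyme and its cofactor lay on opposite sides of WT. Proc, the protein C gene and the more abundant one, was at 361 and 401 CPM in WT and 345 and 213 CPM in DDI2-KO. The low value was that of DDI2-KO replicate 2, the libraries of that genotype differing by 0.69 on the log2 scale, and the log2 fold change was -0.45 (SE 0.24, edgeR adjusted p = 0.301). Pros1, protein S, the cofactor of protein C, was at 59.2 and 60.9 CPM against 77.4 and 88.1 CPM. The DDI2-KO libraries were the higher ones, with a log2 fold change of 0.46 (SE 0.16, edgeR adjusted p = 0.135).

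Factors II, VII, IX and X, protein C and protein S need vitamin K, since an enzyme of the endoplasmic reticulum carboxylates their glutamate residues before secretion. Of these 6 genes 4 had a log2 fold change above 0 and 2 below, and none passed the test. In a list of 8 genes of gamma-carboxylation and secretion of clotting factors, 6 were above 0 and 2 below, and 1 passed the test. This was Vkorc1, the vitamin K epoxide reductase that regenerates the cofactor. WT held 545 and 530 reads of it and DDI2-KO livers held 1321 and 1074, or 16.2 and 17.2 CPM against 51.0 and 46.7 CPM. The groups were far apart, and Vkorc1 rose 2.93-fold, a log2 fold change of 1.55 (SE 0.16, edgeR adjusted p = 0.0120). The call held in all 16 alternatives. Of its 50-base stretches, 50.5% are shared with a read-through gene, Gm21974, with 0 reads in every library.

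The fibrinogen chains, alpha, beta and gamma, lie in 1 cluster on chromosome 3, with 11026 bases between Fgg and Fga and 6513 between Fga and Fgb. None passed the test. Fgg was at 5419 and 5317 CPM in WT and 6028 and 6436 CPM in DDI2-KO. The DDI2-KO libraries were higher, with a log2 fold change of 0.22 (SE 0.16, edgeR adjusted p = 0.466) and an interval from -0.16 to 0.59. Fga had a log2 fold change of 0.31 (edgeR adjusted p = 0.283) without overlap, and Fgb one of -0.03 with overlap. Per length, Fga over Fgb was 1.17 and 1.15 in WT, against 1.46 and 1.48 in DDI2-KO, a difference larger than the spread within either group.

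Fibrinolysis dissolves the clot through plasmin. Plg, plasminogen, Cpb2, a carboxypeptidase that slows fibrinolysis, and Vtn, vitronectin, which binds the terminal complement complex and the inhibitor PAI-1, had log2 fold changes of 0.04, 0.30 and 0.01, and none passed the test. Vtn, the most abundant per length, was at 2309 and 2328 CPM in WT and 2506 and 2179 CPM in DDI2-KO livers. The DDI2-KO libraries enclosed the WT libraries, and the confidence interval ran from -0.38 to 0.41 (SE 0.17, edgeR adjusted p = 0.968).

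The pathway genes outside the 38 were described from further lists. Of 31 other complement genes, 26 were tested, 13 above and 13 below 0, and 1 passed the test in each direction. C4a, a close paralogue of C4b, was counted 97 and 74 times in WT, against 330 and 186 times in DDI2-KO livers, and rose by 1.98 on the log2 scale (SE 0.28, edgeR adjusted p = 0.0209). The DDI2-KO libraries were above WT but far from each other. C4a shares 35.2% of its 50-base stretches with C4b, and per length C4b still exceeded it by 297 and 349 times in WT and by 102 and 114 times in DDI2-KO. Cd46, a membrane regulator that inactivates C3b and C4b with factor I, had 66 and 40 reads against 8 and 8, a fall by 2.30 on the log2 scale (SE 0.45, edgeR adjusted p = 0.0438). Its call held in 8 of 15 alternatives and was lost with each of the 4 libraries left out (adjusted p from 0.0511 to 0.206, edgeR). A gene on the opposite strand that overlaps Cd46, A330023F24Rik, was counted 197 and 138 times in WT, against 27 and 30 times in DDI2-KO, and reads of opposite strands are separable only if the counting used strand. The C1q chains C1qa, C1qb and C1qc, products of macrophages, had log2 fold changes of -0.72, -0.51 and -0.39 without overlap. None of these passed the test. Of the 26 genes tested in this list, 6 lay above WT without overlap and 7 below, where over all genes 28% and 27.7% did. The 8 Kupffer cell and macrophage markers had 6 log2 fold changes above 0 and 2 below.

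Of 31 other coagulation and fibrinolysis genes, 25 were tested, 11 above and 14 below 0, and none passed (smallest edgeR adjusted p = 0.0835). At an unadjusted p under 0.05 there were 4 of the 25, where 23.5% of all genes tested reached this level. The largest value was that of F2rl1, a protease-activated receptor, at 6 and 9 reads against 10 and 12 (log2 fold change 0.94, SE 0.57, edgeR adjusted p = 0.358). Both DDI2-KO counts were above both WT counts, and the interval of the difference ran from -0.37 to 2.25.

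Among 18 regulators of hepatocyte and acute-phase genes, 17 were tested and none passed. Cebpa, a hepatocyte transcription factor, was at 126 and 119 CPM in WT and 226 and 163 CPM in DDI2-KO, with a log2 fold change of 0.66 (SE 0.20, edgeR adjusted p = 0.105) and no overlap. Hnf4a, a nuclear receptor of hepatocytes, Stat3, which carries the interleukin-6 signal, and Nfe2l1, which encodes the DDI2 substrate NRF1, had log2 fold changes of 0.23, -0.10 and 0.11 (adjusted p = 0.514, 0.741 and 0.845, edgeR). Of 18 acute-phase serum proteins 12 were above 0 and 6 below and none passed. The largest of them was Orm3, an orosomucoid gene, at 4.34 and 1.29 CPM in WT and 11.05 and 9.92 CPM in DDI2-KO (log2 fold change 1.89, SE 0.52, edgeR adjusted p = 0.109), where the WT libraries were far apart.

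**Figure D5:**
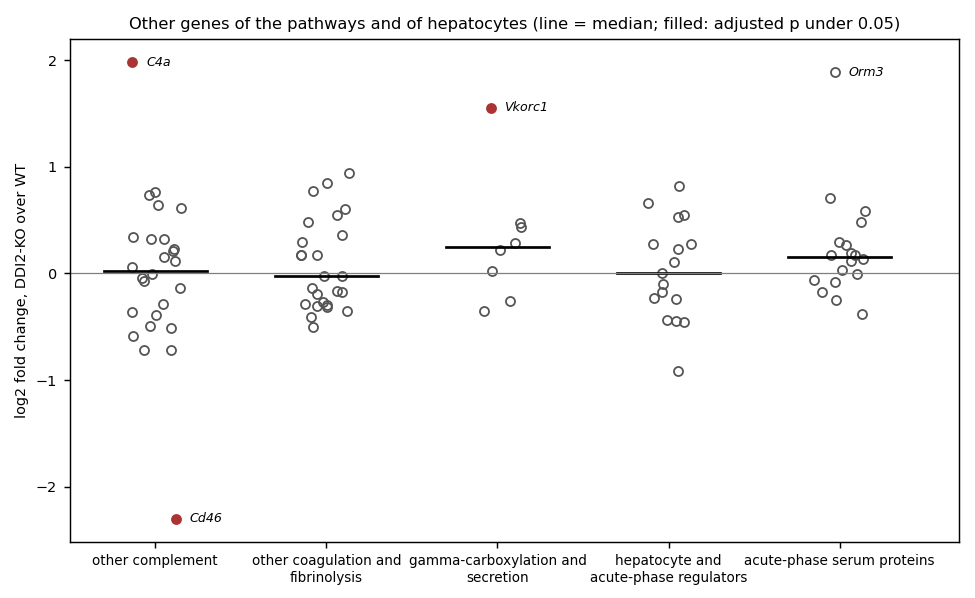
Log2 fold change of DDI2-KO over WT for the tested genes of 5 further lists (points), with a line at each median and filled points for an adjusted p under 0.05. Filled are C4a at 1.98 and Cd46 at -2.30 among other complement genes and Vkorc1 at 1.55 in the gamma-carboxylation list, and the medians lie between -0.03 and 0.25.

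RefSeq promoter windows were found for 30 of the 38 genes, as 32 windows, and were searched on both strands. The C/EBP motif TTNNGCAA was in 11 windows, or 34.4%, beside 10.8% of all 32851 windows of the same length. The STAT motif TTCNNNGAA was in 8, or 25%, beside 8.30%. All windows were not matched to those of the members for base composition or for expression in liver. Whether these shares are particular to the members was thus not tested. Besides F11 and Klkb1, C/EBP matches lie upstream of the start in F9 at 24 bases, C3 at 45 bases, Fgb at 80 bases, Kng2 at 112 bases, C9 at 132 bases, Fga at 135 bases and C1s1 at 242 bases. Besides C8a, the STAT motif was found upstream in Masp2 at 53 bases, F9 at 82 bases, Pros1 at 92 bases, Fgb at 162 bases and Fga at 234 bases. The genes with a C/EBP match thus include F11, which fell, and its neighbour Klkb1, with a log2 fold change of 0.01. The HNF4 motif CAAAGTC was in 3.13% against 4.44%, and TGANNNNGC, the antioxidant response element that NRF1 and NRF2 can bind, in 43.8% against 41.3%. A match is a description of the letters in the window, not of binding.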

How the data were processed

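Liver mRNA of 2 WT and 2 DDI2-KO mice was sequenced from strand-specific libraries. The values the authors deposited are raw read counts per Ensembl gene and library, with no normalization. The submitters' processing notes name cutadapt 1.8, STAR 2.5.2b, HTSeq 0.6.1 and GRCm38, and the annotation and strand setting of the counting are not given in the sources used here. Summary lines were left out of the library sizes; reads assigned to no gene came to 2.53% to 5.11% of the reads on genes, ambiguous reads to 2.50% to 3.66%, and alignments that were not unique to 47.3% to 65.8%. Reads that fit several genes were thus lost from paralogues and read-through genes.

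Counts were scaled by TMM and tested with edgeR 4.0.16 in R 4.3.3 (filterByExpr, glmQLFit with robust estimation, glmQLFTest), and p-values were adjusted by Benjamini-Hochberg over 13699 genes, with calls at an adjusted p under 0.05. The standard error (SE) is the size of the log2 fold change over the root of F. Confidence intervals are at 95%. P-values set a difference against a spread estimated from 2 mice a group together with information shared across the genes tested. The SE of a gene thus does not follow its own libraries alone. The study's own test was limma's, run here as an alternative. Symbols, positions and exon lengths are from the GENCODE M21 annotation of GRCm38, which holds 48349 of the 48709 identifiers.

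Every member was named; values in each library are given for members with an unadjusted p under 0.05 and the most abundant member of each role, and of the other lists for genes called, the largest change of each list and a few regulators. The C1q chains, the marker genes Stab2, Hba-a1, Ppbp, Pf4, Itga2b, Gp9 and Ly6g, A330023F24Rik and Fbxw5 are not covered by this rule and were picked once their values were known. Of what the rule and the motif search cover, some items are not reported here. The members and lists were chosen with earlier results of these data known. Alternatives were RLE and upper-quartile factors, library totals, DESeq2 1.42.0, limma 3.58.1 (voom, and trend at a prior count of 2), all genes unfiltered, a replicate block, a filter at a mean of 1 CPM, no robust estimation, offsets for GC content and length (lowess span 0.3), scaling without mitochondrial genes and Alb, each library left out, and a threshold of 0.1. On simulated data for this comparison (13479 genes), 179 of 198 tested genes with a true log2 change of 2 were recovered, and 2 of 181 calls were false. The simulated spread followed the fitted trend, without a spread particular to each gene. The 38 genes ranged from -1.34 to 0.91, and for changes of that size the simulation gives no recovery rate. Libraries of a group differed beyond sampling noise (chi-square over degrees of freedom 64.7 in WT and 34.7 in DDI2-KO), so each counted as a sample.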

Additional observations from a re-analysis of the deposited data

How the results depend on the processing

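The call of C8a held in all 16 alternatives and that of F11 in 14. All but 12 of the 38 genes kept their direction throughout, and these 12 had log2 fold changes of at most 0.12 in size. The count of members called was 4 with DESeq2, 5 without the filter, 5 at a threshold of 0.1, and between 1 and 3 with a library left out (1 without either WT library). The count over all genes, 346, became 940 with DESeq2, 136 with limma-voom, 139 with limma-trend, 1544 without the filter, 152 without robust estimation, 829 with offsets for GC content and length, 1281 at a threshold of 0.1, and 153 to 631 with a library left out (153 without WT replicate 1, 203 without WT replicate 2, 631 without DDI2-KO replicate 2). Of the calls, 52.6% were higher, against 39.8% with upper-quartile factors, 60.9% with library totals and 37.4% without WT replicate 2. The median log2 fold change of the members was -0.0199 with the GC and length offsets and 0.0108 to 0.155 with a library left out, and the cause was not tested.

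The replicate numbers are shared between the groups, but no source pairs the mice, and the deviations of same-numbered libraries correlated weakly (r = 0.06 across 13699 genes, which are not independent replicates). With a replicate block 5 members and 1108 genes were called, the members C2, Mbl1 and C8g beside C8a and F11, and Klkb1 was at -0.00732.

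Directions turned only for small values. The GC and length offsets gave -0.0182 for C1ra, -0.0199 for Mbl2, -0.0198 for Cfi, -0.105 for Kng1, -0.0766 for F7, -0.0940 for Plg and -0.0733 for Vtn. Upper-quartile factors gave -0.0429 for Klkb1, -0.0273 for Kng1, -0.0190 for F7, -0.0085 for Plg and -0.0382 for Vtn. Klkb1 was at -0.00583 with limma-voom, -0.00737 with limma-trend and -0.00769 with the filter of 1 CPM, Vtn at -0.00400 with that filter, and Fgb at 0.0157 with library totals. With a library left out, ranges were -1.53e-05 to 0.25 for Mbl2, -0.13 to 0.0152 for Masp1, -0.0903 to 0.27 for Cfp, -0.39 to 0.17 for F12, -0.23 to 0.23 for Klkb1, -0.21 to 0.25 for F7, -0.0750 to 0.0124 for Fgb, -0.0645 to 0.16 for Plg, -0.0856 to 0.12 for Vtn and -0.24 to 0.47 for Nfe2l1. Depth limits Cfb, Cd46 and F2rl1, and the platelet genes Ppbp, Pf4, Itga2b and Gp9, whose counts were under 100 in every library.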

Other observations

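Adjacent genes of the list can be set side by side. C8a and C8b on chromosome 4 both had values below 0 (-1.34 and -0.52), and Cfb and C2 on chromosome 17, 85 bases apart, both had values above 0 (0.90 and 0.63). F7 and F10, 1498 bases apart on chromosome 8, had 0.03 and 0.21, C1ra and C1s1 on chromosome 6 had 0.12 and 0.38, and Kng2 and Kng1 on chromosome 16 had 0.21 and 0.03. F11 and Klkb1 are the pair with the widest difference, -1.01 against 0.01. The numbers are fitted log2 fold changes of DDI2-KO over WT, and no test was run over the pairs.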
